A study of Mus musculus with 6 samples.

Results

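The 10 genes described here encode G1 cyclins (Ccnd1, Ccnd2, Ccnd3, Ccne1 and Ccne2), the S phase and mitotic cyclins Ccna2 and Ccnb1, the Cdk inhibitors Cdkn1a (p21) and Cdkn1b (p27), and the transcription factor Myc. They were found by the gene name that the scanner files give to each probe. They are 10 of the 28100 gene names or identifiers on the array and had 19 of its 41174 non-control probes, with 1 probe for each of 4 genes and 2 or 3 probes for each of the other 6. The RNA came from cultured dermal fibroblasts of C57BL/6 mice, the matrix-producing cells of the skin, kept in medium with serum. Cells received interleukin-1 (IL-1, 20 ng/ml) for 1, 2 or 4 h, and the untreated cells (0 h) shared the strain and the medium but had no IL-1. The labels do not name the form of IL-1 or say whether the times came from separate cultures. On each of the 6 two-colour arrays, RNA of IL-1-treated cells competed with RNA of untreated cells, and every time had 2 arrays of opposite labelling. Both arrays of a time carried the same RNAs and count as 1 sample.

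Cyclins bind and activate cyclin-dependent kinases (Cdks). D-type cyclins with Cdk4 and Cdk6, and then E-type cyclins with Cdk2, phosphorylate the retinoblastoma protein, which releases E2F factors and lets cells enter S phase. p21 and p27 bind cyclin-Cdk complexes and restrain them, and Myc is a growth-factor-responsive regulator of growth and cell cycle genes. In fibroblasts, Myc and cyclin D1 are known as genes that respond to mitogens, and p21 as a target of p53.

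Each value is the log2 of the treated signal over the untreated one, with the direction taken from the dyes in the labels, and a ± beside a time's value is the distance of either dye orientation from their mean. That distance is technical only, and had a median of 0.062 and a 95th percentile of 0.197 over all measured probes and times. Of the 19 probes, 18 passed the background filter, and these 18 were well above background in both channels on all 6 arrays. No reading of a member was saturated (0 in all). All 12 fibroblast markers were well above background in all 12 readings (the treated and untreated channel of the 6 arrays), with 2 up and 1 down in the mean response. Among markers of other cell types, 5 of 6 keratinocyte, 6 of 7 leukocyte, 3 of 5 endothelial, 4 of 6 melanocyte and mast cell and 4 of 4 muscle markers passed the same permissive filter, while Cdh1, Itgam, Pecam1, Cdh5, Tyr and Mlana did not. By the measure used for the fibroblast markers, 5 keratinocyte, 6 leukocyte, 1 endothelial, 2 melanocyte and mast cell and 4 muscle markers were well above background in all 12 readings. The brightest leukocyte and muscle markers had mean log2 signals of 11.65 and 13.66, where fibroblast markers ranged from 7.35 to 15.8. Of those that passed the filter, 3 leukocyte markers and 1 muscle marker rose, by at most 0.17, and the keratinocyte marker Krt10 was at -0.20. Their part in the results below was not tested.

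Ccne2, which encodes cyclin E2, was the member that differed most from untreated cells, and it was lower at every time. Its first probe (chromosome 4, positions 11129990 to 11130049, genome build not stated) stood at -0.45 and -0.58 after 1 h, -0.55 and -0.56 after 2 h, and -0.54 and -0.59 after 4 h, the array with treated RNA in Cy5 given first. The second probe, which lies next to it (positions 11130106 to 11130165), stood at -0.39 and -0.41, -0.42 and -0.50, and -0.41 and -0.59 at the same times. All 12 ratios were thus below 0, and the probes did not differ in direction on any array.

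Averaged over the orientations, the first Ccne2 probe had -0.52 ± 0.068, -0.55 ± 0.0034 and -0.56 ± 0.025 at 1, 2 and 4 h, or 0.699, 0.682 and 0.677 of the untreated level. The second had -0.40 ± 0.011, -0.46 ± 0.041 and -0.50 ± 0.091. In bulk RNA, fewer cells expressing a gene and less RNA per cell cannot be told apart. The mean over the 3 times, tested against 0 with limma across all 30580 measured probes, was -0.54 ± 0.023 for the first probe (SE, n = 3, limma adjusted p = 0.000312) and -0.45 ± 0.027 for the second (SE, n = 3, limma adjusted p = 0.000595). The 3 values are 3 different times, not replicates of 1 condition, and each is a ratio to untreated (0 h) cells. A deviation in untreated RNA shared by the times would move all 3 ratios alike and does not enter the SE. Over the array, 19 probes had a lower mean than the first Ccne2 probe and 48 a lower mean than the second.

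The signals, which are the channels behind these ratios, show the same separation. Both arrays of a time carried the same RNAs, so the 6 readings of a side are not 6 samples. On the first Ccne2 probe the normalized log2 signal averaged 7.43, 7.35 and 7.43 in treated RNA at 1, 2 and 4 h and 7.95 ± 0.09 in untreated RNA (SD over 6 readings, from 7.78 to 8.02), and all 6 treated readings lay below the lowest untreated one. On the second the ranges were 6.81 to 7.07 in treated and 7.27 to 7.57 in untreated RNA. Such a full separation downward was present in 2.23% of all measured probes and in 2 of the 18 member probes, both of Ccne2. Both probes were dim, and the offset of 50 added to all signals pulls dim ratios towards 0. With the scanner's processed signals, which have no such offset, the means were -0.79 and -0.80, and with an offset of 16 they were -0.67 and -0.61. The sign and the call held in every alternative tried for the first probe (14) and the second (13), with means from -0.79 to -0.46 and from -0.80 to -0.37.

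**Figure D1:**
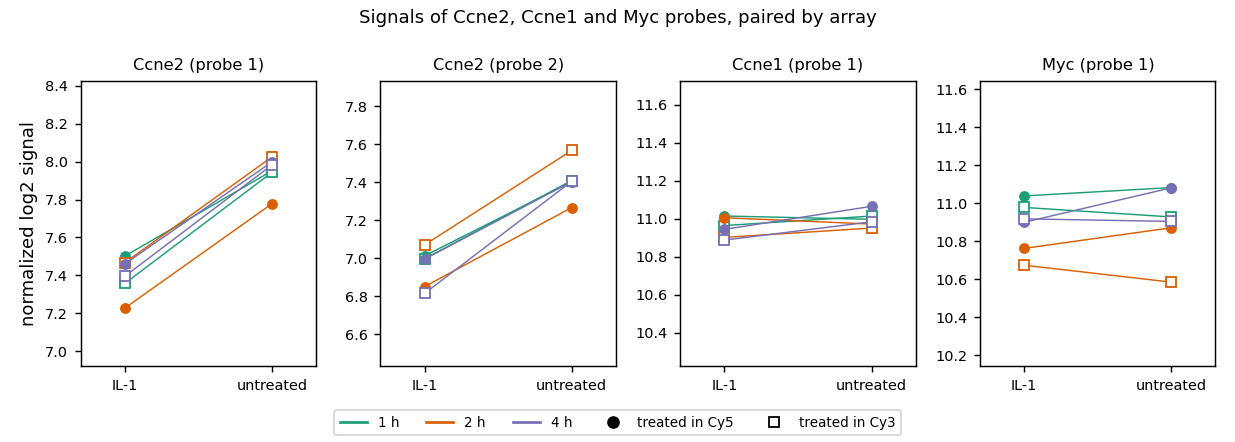
Normalized log2 signal (y axis) of treated (left) and untreated (right) RNA on each of the 6 arrays for both Ccne2 probes, the first Ccne1 probe and the first Myc probe, with lines joining the channels of an array, colours for 1, 2 and 4 h and open squares for treated RNA in Cy3. Both Ccne2 probes show all treated signals below all untreated signals, while the Ccne1 and Myc lines are nearly flat.

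Measured against the size rules, Ccne2 was also the only member past a log2 ratio of 0.5 in size. No member probe (0 of 18) was 2-fold higher or lower at any time in both orientations, where 0.17% of all probes were higher and 0.00654% lower after 1 h, 0.134% and 0% after 2 h, and 0.111% and 0% after 4 h. At -0.5 or below in both orientations stood 0 member probes at 1 h, 1 at 2 h and 1 at 4 h, in both cases the first Ccne2 probe, against 0.0491%, 0.0948% and 0.0916% of all probes. Just outside that rule was the second Ccne2 probe, whose time means reached -0.50 at 4 h with -0.41 in one orientation. At 0.5 or above stood 0 member probes at each time, against 0.5%, 0.52% and 0.435%. These are descriptions, since each time is 1 sample.

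**Figure D2:**
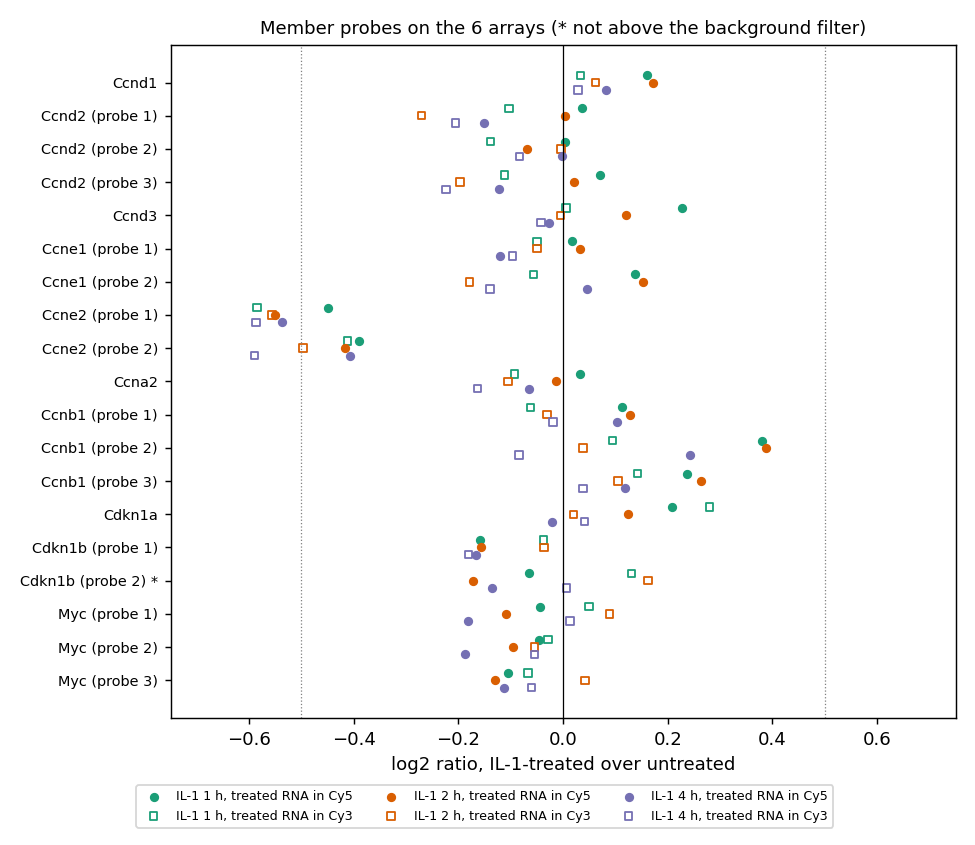
Log2 ratio of treated over untreated RNA (x axis) of each of the 19 member probes on each of the 6 arrays, with filled circles for treated RNA in Cy5, open squares for treated RNA in Cy3 and dotted lines at -0.5 and 0.5. Probes of a gene are numbered from the brightest, and an asterisk marks the Cdkn1b probe that did not pass the background filter. Ccne2 stands apart on the left, and the points of all other members lie within 0.4 of 0.

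Ccne1, the paralog that shares the Cdk2 partner with cyclin E2, had no such shift. Its first probe stood at 0.017 and -0.050 after 1 h, 0.033 and -0.049 after 2 h, and -0.12 and -0.096 after 4 h, and its second at 0.14 and -0.057, 0.15 and -0.18, and 0.045 and -0.14. Signs differed between the dye orientations except at 4 h on the first probe. The means over the times were -0.04 ± 0.029 and -0.01 ± 0.026 (SE, n = 3) and did not pass (limma adjusted p = 0.335 and 0.897). None of the 12 Ccne1 ratios was as low as the highest Ccne2 ratio of -0.39. With median centring, under which 7454 of all probes fell, the first Ccne1 probe passed downward, at -0.19 (limma adjusted p = 0.00207). The second was at -0.09 there and did not pass (0.0541). The Ccne1 minus Ccne2 difference itself was not tested.

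The D-type cyclins, which pair with Cdk4 and Cdk6 early in G1, stayed close to the untreated level. Ccnd1 stood at 0.16 and 0.033 after 1 h, 0.17 and 0.062 after 2 h, and 0.082 and 0.029 after 4 h, above 0 on all 6 arrays. Its mean of 0.09 ± 0.024, or 1.06-fold, passed narrowly (SE, n = 3, limma adjusted p = 0.0455). That call ended in 7 of 14 alternatives, among them those without the 1 h sample (limma adjusted p = 0.149) or without the 2 h sample (0.259), and centring each array on its median turned the mean to -0.06 (0.159).

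Ccnd2 was measured by 3 probes on chromosome 6 (the brightest at positions 127812482 to 127812541). The brightest stood at 0.037 and -0.10 after 1 h, 0.0034 and -0.27 after 2 h, and -0.15 and -0.21 after 4 h. The dimmest showed the same course, with time means of -0.02 ± 0.091, -0.09 ± 0.11 and -0.17 ± 0.051, while the second had -0.07 ± 0.071, -0.04 ± 0.033 and -0.04 ± 0.040. At 4 h all 6 readings of the 3 probes were below 0. The means over the times were -0.12, -0.05 and -0.09 and did not pass (limma adjusted p = 0.0524, 0.187 and 0.0973). The value of the brightest probe sat at the threshold, and passed in 7 of 14 alternatives. Its reading of -0.27 came from the 2 h array with treated RNA in Cy3, where the spot was dimmer in both channels. There it had 12.36 in treated and 12.64 in untreated RNA, against at least 13.20 on the other arrays. With median centring all 3 probes passed downward, at -0.29, -0.22 and -0.26 (limma adjusted p = 0.000757, 0.00102 and 0.001).

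Ccnd3 stood at 0.23 and 0.0061 after 1 h, 0.12 and -0.0044 after 2 h, and -0.026 and -0.042 after 4 h. The mean was 0.05 ± 0.033 and did not pass (SE, n = 3, limma adjusted p = 0.382).

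Ccna2, the cyclin of S phase and G2, stood at 0.032 and -0.093 after 1 h, -0.013 and -0.11 after 2 h, and -0.065 and -0.16 after 4 h. Its mean of -0.07 ± 0.026 did not pass (SE, n = 3, limma adjusted p = 0.12). It passed downward in 3 of 14 alternatives, among them median centring, at -0.22 (limma adjusted p = 0.00126). Ccnb1, whose product drives entry into mitosis with Cdk1, was measured by 3 probes on chromosome 13 that differed in size. The brightest had 0.11 and -0.062 after 1 h, 0.13 and -0.031 after 2 h, and 0.10 and -0.020 after 4 h, so that the sign followed the dye at each time, and its mean of 0.04 did not pass (limma adjusted p = 0.285).

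The other Ccnb1 probes rose slightly. The second stood at 0.38 and 0.094, 0.39 and 0.038, and 0.24 and -0.085 at 1, 2 and 4 h, with a mean of 0.18 ± 0.035 (SE, n = 3, limma adjusted p = 0.0173). The third stood at 0.24 and 0.14, 0.26 and 0.11, and 0.12 and 0.038, with a mean of 0.15 ± 0.030 (SE, n = 3, limma adjusted p = 0.0171), and its treated signals (8.54 to 8.73) lay above its untreated signals (8.42 to 8.53). A full separation upward was present in 2.57% of all probes and in 1 of the 18. With treated RNA in Cy3 alone the second probe had a mean of 0.016, and both calls ended there (limma adjusted p = 0.796 and 0.0792). Both calls also ended with the scanner's processed signals (0.0826 and 0.0756) and without the 2 h sample (0.115 and 0.122) and with median centring (0.129 and 0.245, at means of 0.076 and 0.054), and that of the third probe without the 1 h sample (0.0515).

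Cdkn1a, which encodes p21, was highest at 1 h. Its probe (chromosome 17, positions 26908850 to 26908909) stood at 0.21 and 0.28 after 1 h, 0.12 and 0.020 after 2 h, and -0.021 and 0.041 after 4 h, so the readings at 1 h lay above all later ones. The time means were 0.24 ± 0.036, 0.07 ± 0.052 and 0.01 ± 0.031, or 1.18-, 1.05- and 1.01-fold. Over the array, 660 of 30580 probes had a higher mean at 1 h. Neither the mean over the times (0.11 ± 0.045, SE, n = 3, limma adjusted p = 0.145) nor the slope of -0.12 per doubling of time (limma unadjusted p = 0.0064, adjusted p = 0.233) passed. The spot was dimmer in both channels on the 2 h array with treated RNA in Cy3, at 10.30 in treated and 10.28 in untreated RNA, against at least 10.81 on the other arrays. Centring each array on its median gave 0.092 at 1 h and turned the mean over the times to -0.04.

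Cdkn1b, which encodes p27, was measured by 2 dim probes. The first stood at -0.16 and -0.037 after 1 h, -0.16 and -0.037 after 2 h, and -0.17 and -0.18 after 4 h, below 0 on all 6 arrays, and fell by 0.12 in the mean (0.026 SE, n = 3, limma adjusted p = 0.0214). That call ended without the 2 h sample (limma adjusted p = 0.0958), without the 4 h sample (0.0555) and with treated RNA in Cy3 alone (0.15), while the scanner's processed signals gave a mean of -0.35. The second probe did not pass the filter. It was well above background in 2 of 6 treated and 4 of 6 untreated readings and in neither treated reading at 4 h, so its ratios, from -0.17 to 0.16, are not used as a measure of Cdkn1b.

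Myc was measured by 3 probes on chromosome 15 (the brightest at positions 62002138 to 62002198), and none passed in either direction as processed here. The brightest stood at -0.044 and 0.050 after 1 h, -0.11 and 0.089 after 2 h, and -0.18 and 0.014 after 4 h, with the sign following the dye each time. The second was below 0 on all 6 arrays, from -0.19 to -0.029. The remaining probe was below 0 on all but 1 array, at -0.10 and -0.067 after 1 h, -0.13 and 0.042 after 2 h, and -0.11 and -0.061 after 4 h.

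Over 1, 2 and 4 h, the time means were 0.00, -0.01 and -0.08 for the brightest Myc probe, -0.04, -0.08 and -0.12 for the second and -0.09, -0.04 and -0.09 for the dimmest. Averaged over the times they were -0.03, -0.08 and -0.07, and none passed (limma adjusted p = 0.49, 0.0819 and 0.077). The calls depended on the scaling. With median centring, under which 7454 of all probes fell, all 3 probes passed downward, at -0.18, -0.21 and -0.14 (limma adjusted p = 0.00301, 0.00135 and 0.00806), and with dye orientation as a replicate block the second and the dimmest passed (0.0338 and 0.0371). The brightest probe passed in 2 of 14 alternatives and each of the others in 3 of 13, all downward. The normalized log2 signal of the brightest probe was 10.67 to 11.04 in treated and 10.58 to 11.08 in untreated RNA, so its transcript was readily measured. A short peak before 1 h would not be seen with these times.

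Over all member probes, 6 of 18 passed the test of the mean response, 3 up (Ccnd1 and the second and the third Ccnb1 probe) and 3 down (both Ccne2 probes and the first Cdkn1b probe). By the same test 21.9% of all probes passed, 10.5% up and 11.4% down. With median centring, 1681 of all probes rose and 7454 fell, against 3216 and 3472 as processed here. The untreated cells' own spread does not enter this test. Of the 6, 4 had a mean within 0.2 of 0. Below 0 on all 6 arrays were 4 member probes (both of Ccne2, the first of Cdkn1b and the second of Myc) and above 0 on all 6 were 2 (Ccnd1 and the third of Ccnb1), against 10.1% and 10.4% of all probes. For 9 of the 10 genes, every time mean of every measured probe lay within 0.3 of 0, and the exception was Ccne2. The member probes had a median of -0.05, against 0.0021 for all probes. In a fit of the 6 arrays with dye orientation as a replicate block, which treats both arrays of a time largely as separate samples, 3 probes rose and 8 fell, where 29.6% of all probes passed (4367 up and 4670 down). The slope per doubling of time passed for 0 of 18 probes in limma, against 0.438% of all probes, and had an unadjusted p under 0.05 for 5, against 10.4%. From 1 h to 4 h, 0 member probes moved by 0.5 in both orientations, against 0.101% of all probes up and 0.219% down.

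**Figure D3:**
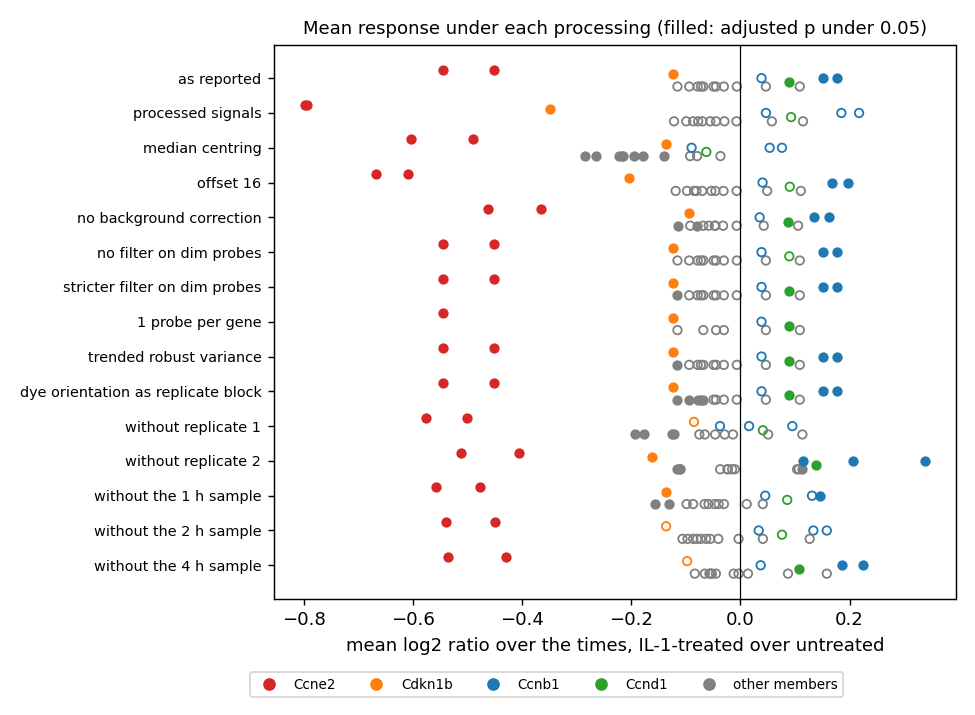
Mean log2 ratio over the times (x axis) of the measured member probes under each processing (rows), filled where the limma adjusted p was under 0.05. Ccne2 (red) lies between -0.80 and -0.37 in every row, while the other members lie within 0.4 of 0 and several of their calls change between rows.

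Other genes of the cell cycle and of Myc were set beside the members through 10 lists with 106 genes, of which 105 were measured, each by its brightest probe. In the mean response 18 rose, 25 fell and 62 did not pass, with a median of -0.02. Among the Cdks, 2 of 6 rose and 2 fell. Cdk6, a partner of the D-type cyclins, stood at 0.38 and 0.096 after 1 h, 0.90 and 0.56 after 2 h, and 0.93 and 0.70 after 4 h, with a mean of 0.59 ± 0.10 (SE, n = 3, limma adjusted p = 0.0111). It was the highest on the lists and past 0.5 in both orientations at 2 h and 4 h. That value rests on a probe for a cDNA clone. The dim Cdk6 probes for the RefSeq transcript gave 0.21 (limma adjusted p = 0.0224) and 0.06 (0.372). The call of the brightest Cdk6 probe ended in 2 of 14 alternatives, among them the scanner's processed signals (limma adjusted p = 0.0754). Cdk4, the other partner, rose by 0.16 but was at 0.01 with median centring (limma adjusted p = 0.791), and Cdk7, the kinase that activates other Cdks, fell by 0.28.

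Of the other Cdk inhibitors 0 of 6 rose and 4 fell, with a list median of -0.16. Cdkn1c (p57) was at -0.29, Cdkn2a at -0.24 and Cdkn2d (p19) at -0.21, each past the threshold. Among the Rb and E2F genes 0 of 12 rose and 5 fell, with a median of -0.08. The repressor E2f7 was at -0.22, E2f6 at -0.18 and the pocket protein gene Rbl1 at -0.15. E2f7 was low on the arrays with treated RNA in Cy3 (-0.44, -0.39 and -0.41 at 1, 2 and 4 h) and stood at 0.051, -0.035 and -0.12 on the others, whose mean of -0.03 did not pass (limma adjusted p = 0.508). Of the S phase replication genes 1 of 14 rose and 6 fell, with a median of -0.06, and the DNA polymerase clamp Pcna was at -0.20, the helicase subunit Mcm4 at -0.17 and the thymidine kinase Tk1 at -0.15. With treated RNA in Cy5 alone, Pcna turned to 0.11, past the threshold upward, and Mcm4 to 0.0052. With treated RNA in Cy3 alone Pcna was at -0.52, past it downward, so its direction followed the dye. The mitosis genes had 2 of 15 up and 2 down, with a median of -0.01, the checkpoint kinase Bub1b at 0.19, the spindle motor Kif11 at -0.16 and Aurkb at -0.14. Of the other cyclins only Ccnh, the partner of Cdk7, passed, at -0.11, and 9 of 10 did not. With treated RNA in Cy5 alone this brightest Ccnh probe was at 0.06. Dimmer Ccnh probes for the same RefSeq transcript were below 0 on every array, at -0.21 and -0.13 (limma adjusted p = 0.00498 and 0.0209). A dim probe for a cDNA clone was at -0.05 and did not pass (0.455).

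In the Myc network 2 of 9 measured genes rose and 2 fell. The paralog Mycl was at 0.38 and the Myc antagonist Mnt at 0.18, while Max, the dimer partner of Myc, was at -0.22. At 4 h Max stood at 0.038 with treated RNA in Cy5 and -0.43 in Cy3, and its call ended in 1 of 14 alternatives. Of the Myc target genes 6 of 14 rose and 1 fell, with a median of 0.07, led by the nucleolar proteins Ncl (0.26) and Npm3 (-0.63) and the RNA polymerase I subunit Polr1b (0.18). Npm3 ratios spread widely at 2 h, at -1.19 and -0.27. Ncl stood at 0.023, 0.083 and 0.12 with treated RNA in Cy5, and at 0.42, 0.41 and 0.47 in Cy3. With median centring Ncl was at 0.07 (limma adjusted p = 0.138). The other Ncl probes were at 0.25, 0.05 and 0.16, and the one at 0.05 did not pass (0.1455). On the list of p53 targets, which also holds the p53 gene Trp53, 3 of 12 rose (Trp53 at 0.12, Gadd45a at 0.29 and the p53 ubiquitin ligase Mdm2 at 0.20) and 1 fell (the apoptosis gene Bax at -0.13), next to the Cdkn1a mean of 0.11. Mdm2 was at 0.07 with median centring (limma adjusted p = 0.384) and its second probe did not pass (0.09, limma adjusted p = 0.243), and Bax was at -0.05 with treated RNA in Cy3 alone (0.272). The p53 targets Btg2, an antiproliferative gene, and Bbc3, which encodes the cell death protein Puma, were chosen after their values were seen. Both stood highest at 1 h, with 0.65, 0.096 and 0.057 for Btg2 and 0.59, 0.084 and 0.17 for Bbc3 at 1, 2 and 4 h, and passed neither in the mean (limma adjusted p = 0.142 and 0.0741) nor in the slope (0.152 and 0.374). Of the 12 genes, 3 were highest at 1 h (these and Trp53), 2 at 2 h and 7 at 4 h. This tally does not weigh the size of the differences. Mdm2, counted at 4 h, had 0.284 at 1 h and 0.285 at 4 h. Bax, Sesn1 and Phlda3, also counted at 4 h, lay below 0 at every time. Of the genes for p27 and cyclin turnover 2 of 9 rose and 1 fell, with Skp2, the F-box protein that recognises p27, at -0.16, Fzr1 at 0.13 and Cul1 at 0.11, which turned to -0.01 with treated RNA in Cy3 alone. The other Cul1 probes disagreed, at 0.07 (limma adjusted p = 0.151) and -0.13 (0.0141), and Fzr1 was at 0.0043 with median centring (0.937). Of the list genes named here, Mdm2, Fzr1 and Cul1 each lost the call in 6 of 14 alternatives, Cdk4, Tk1 and Ccnh in 4, and Bub1b, Mnt, Mcm4 and Bax in 3, while Cdk7, Cdkn1c, Npm3 and Mycl kept call and direction in all 14. Pcna passed in all 14 but changed sign in 1. The shares of each list are to be read against the 10.5% up and 11.4% down of all probes.

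**Figure D4:**
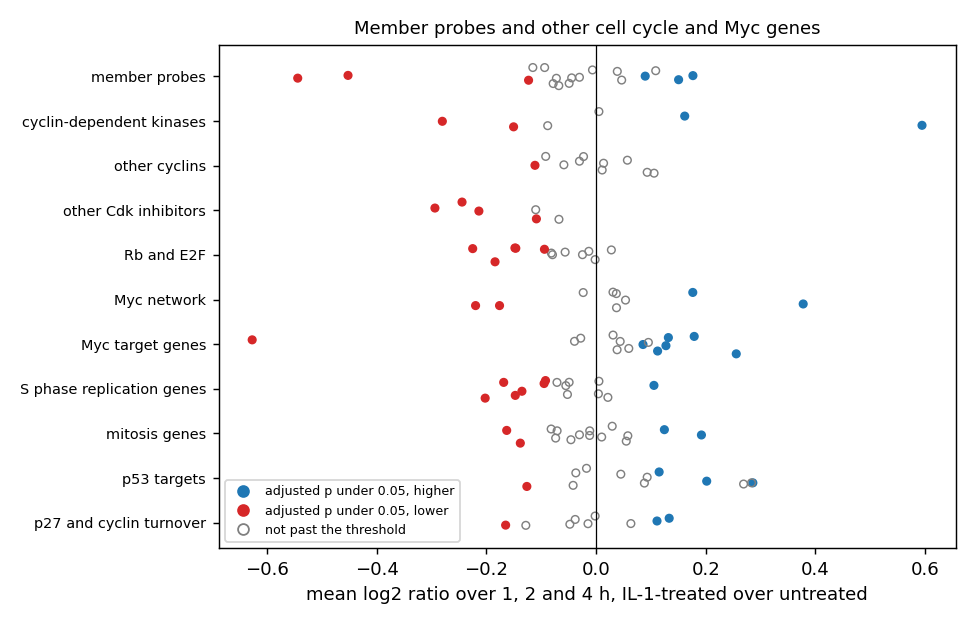
Mean log2 ratio over 1, 2 and 4 h (x axis) of the 18 measured member probes (top row) and of each measured gene on the 10 lists, with blue for higher and red for lower at a limma adjusted p under 0.05 and open grey circles for the rest. The points furthest out are Npm3, Ccne2 and Cdk6.

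The profile of Ccne2 was then compared with that of other genes over the 6 log2 ratios, by Euclidean distance among 13284 genes named through RefSeq. The nearest were the nuclear receptor gene Nr2f2 (distance 0.192, time means -0.41, -0.51 and -0.61), Commd8 (0.209, with -0.54, -0.56 and -0.46) and the protocadherin gene Pcdh18 (0.248, with -0.51, -0.61 and -0.54). Of these, Nr2f2 and Commd8 had further probes nearer to 0. The other Nr2f2 probes had means of -0.23 and -0.01, and the second Commd8 probe was at -0.02.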

How the data were processed

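Per the file headers, the authors scanned the arrays with Agilent Feature Extraction 7.5.1. Its raw intensity columns give spot brightness and local background, and its processed intensity columns had background subtraction and dye normalization by the software. The deposited value table holds log2 ratios. For 100% of spots, each column matches (within 0.001) the processed ratio of its dye-swap partner rather than of its own array. Columns and scanner files are thus exchanged relative to each other within a pair. Whether the columns or the files were exchanged was not tested. Pair means of the table and of the processed ratios are the same, and the direction used here rests on the dyes in the labels. Were the files exchanged, the dyes assigned to them would be wrong and the signs reversed.

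Each array has 43790 spots, 2256 of them controls. With limma 3.58.1 in R 4.3.3, mean signals were corrected by normexp (offset 50) and normalized by loess. Control spots and outliers were left out. The filter required a probe to be well above background on all arrays of 1 or more conditions (30634 probes, 54 of which lacked a value on some array and were dropped). Signals per channel were then scaled between arrays by Aquantile. Names came from the RefSeq accession (GRCm38.p6 gene table) for 22072 probes.

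The 2 arrays of a time were averaged, since the design text calls them dye swaps. The mean over 3 times (2 residual degrees of freedom) and the slope on log2 time (1) were tested by limma's lmFit and eBayes (two-sided tests), with p-values Benjamini-Hochberg adjusted over 30580 probes, at 0.05. Size rules of 1 and 0.5 applied to both orientations. The script was tested on simulated data. P-values measure only the spread between these samples, and the number of arrays limits the precision. Replicate numbers stand for dye orientation in the labels, and arrays of the same number deviated together (correlations across probes of 0.765 to 0.843). Every member is named, with up to 3 passing genes per list by size and the 3 nearest profiles of any member past 0.5. Members and lists were chosen with earlier results of these data known. Each array is a slide of its own.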

Additional observations from a re-analysis of the deposited data

Results flagged for a closer look

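Ccnd3 was above 0 on both arrays at 1 h (0.23 and 0.0061) and below 0 on both at 4 h (-0.026 and -0.042), so that 4 h minus 1 h was -0.151 in the time means. The opposite signs at these times drew attention to it, and the difference was not tested by itself. The 1 h mean was 0.12 ± 0.11, so the value above 0 rested mostly on the array with treated RNA in Cy5. The slope of Ccnd3 per doubling of time was -0.08 and did not pass (limma adjusted p = 0.416).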

How the results depend on the processing

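As reported, 3 member probes rose and 3 fell in the mean response, and 0, 1 and 1 probes stood at -0.5 or below at 1, 2 and 4 h. With the scanner's processed signals 0 rose, and 2 probes stood at -0.5 or below at each time, as also with an offset of 16. With median centring 0 rose and 11 fell, and 0 probes were past -0.5 in both orientations at 2 h and at 4 h. Under this centring the time means of the first Ccne2 probe were still -0.56, -0.66 and -0.59 at 1, 2 and 4 h. That centring leaves the dye trend with signal in place, and it turned the means of Ccnd3 (-0.0791), Ccnd1 (-0.0623), Cdkn1a (-0.0365) and the first Ccnb1 probe (-0.0893). Without background correction 5 fell and 0 were past -0.5 at 2 h and 4 h. With 1 probe per gene, which leaves 10 member probes, 1 rose. With dye orientation as a replicate block 8 fell. On single orientations 0 to 5 rose, 5 to 6 fell, 0 to 1 were past -0.5 at 1 h and 1 to 2 at 4 h. The mean without replicate 1 and without replicate 2 was 0.0509 and -0.1113 for the first Myc probe, -0.0135 and 0.107 for Ccnd3, -0.0373 and 0.1149 for the first Ccnb1 probe, -0.0127 and 0.235 for Cul1, -0.1251 and 0.112 for the second Ccne1 probe, -0.5179 and 0.114 for Pcna, -0.3419 and 0.0052 for Mcm4, and -0.2834 and 0.0608 for Ccnh, so that the sign of each turned with the dye orientation. For Ccnh this holds for the brightest probe, while the dimmer probes for the same RefSeq transcript stayed below 0 on every array. Without the 1 h sample 1 rose and 5 fell, and without the 2 h sample 0 rose. Without the 4 h sample the second Ccne1 probe turned to 0.0139. The cause of these changes was not tested. Over all probes the mean response passed for 3216 up and 3472 down as reported, 1033 and 933 with processed signals, 1681 and 7454 with median centring, 3538 and 3831 without background correction, 2251 and 2412 with an offset of 16, 2335 and 2396 with 1 probe per gene, 4367 and 4670 with the replicate block, 2411 and 2664 without the 1 h sample, 927 and 861 without the 2 h sample, 4539 and 5901 without replicate 1 and 6268 and 5030 without replicate 2. Of 244 recomputed member means 191 kept direction and side of the threshold, 19 lost and 27 gained a call, and 9 changed sign, some of them with a change of call. Of 434 such means of the other named genes 369 kept both, 64 lost the call and 4 changed sign. The size rules at 1 and the slope gave 0 member probes in every alternative that was run for them. Dim probes (Ccne2, Cdkn1b) are limited by their signal over background.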
